A study of Homo sapiens
Mus musculus with 2 samples.

Results

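J chain (Jchain, mm10_ENSMUSG00000067149) was described in single mouse cells, together with the background that its RNA left in other barcodes. It was 1 of 8 mouse immunoglobulin genes chosen by identifier, the others being the light chain constant genes Igkc (mm10_ENSMUSG00000076609) and Iglc2 (mm10_ENSMUSG00000076937) and the heavy chain constant genes Ighg1 (mm10_ENSMUSG00000076614), Ighg2b (mm10_ENSMUSG00000076613), Ighg2c (mm10_ENSMUSG00000076612), Ighg3 (mm10_ENSMUSG00000076615) and Ighm (mm10_ENSMUSG00000076617). Counts of J chain were used in both libraries. The other 7 genes, and with them isotype and light chain, were not analysed here. The tables held 14740 mouse genes in all.

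The 2 Drop-seq libraries were made from 4 cultured lymphocyte lines mixed in equal number: Jurkat and TALL104, which are human T cells, EL4, a mouse T cell lymphoma, and IVA12, a mouse hybridoma of the B lineage. Per the study's sample list, both libraries were made from the same mixture, with cells loaded at 150 cells per µl (the 150 library) or 300 cells per µl (the 300 library). No agent or genetic change separated the libraries, and each line is a single established culture. With 1 library per concentration, values of the 150 and 300 libraries are set side by side and not tested.

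The J chain is a small protein that links IgM and IgA units into polymers and lets the polymeric immunoglobulin receptor carry them across epithelia. Its gene is held silent in resting B cells, in part by Pax5, and is switched on when B cells become plasmablasts and plasma cells, also in those that make IgG. T cells do not use it. A hybridoma is a fusion of an antibody-secreting B cell with a myeloma cell, so in this mixture IVA12 is the line with a secretory B cell history.

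A UMI (unique molecular identifier) counts 1 captured transcript. Over 2000 barcodes, 2398956 UMIs were counted in the 150 library, and over 4000 barcodes 8707135 in the 300 library. J chain had 2935 and 12402 UMIs in them, found in 647 and 2119 barcodes. The libraries had 1 cell barcode in common. A barcode was taken as a mouse cell when it held at least 1000 UMIs of which at least 90% were of mouse genes, which left 85 mouse cells in the 150 library and 685 in the 300 library. These held 73.8% and 78.2% of all J chain UMIs, beside 67.9% and 79.1% of all mouse UMIs.

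Mouse cells fell into 2 groups that were found from all other mouse genes, with J chain left out. They were named afterwards by their J chain content, J chain-rich and J chain-poor, so the direction of the difference follows from the names. The markers of T and B lineage fixed for the cell lines could not be applied because no mouse gene names were used here, and neither group is therefore called by the name of a line. The J chain-rich group had 35 cells in the 150 library and 299 in the 300 library. The J chain-poor group had 50 and 386 cells.

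J chain separated the groups in both libraries. In the J chain-rich group it had 2153 UMIs in the 150 library and 9461 UMIs in the 300 library. These were 46.8 (95% Poisson interval 44.8 to 48.8) and 41.3 (40.4 to 42.1) UMIs per 10000 mouse UMIs. In the J chain-poor group it had 14 and 236 UMIs, or 0.233 (0.128 to 0.392) and 0.732 (0.642 to 0.832) per 10000 mouse UMIs. Intervals of levels, means and ratios, here and below, cover counting error only. Those of shares of cells and of medians take cells as the units sampled, and no interval covers the spread between libraries.

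The J chain share of mouse UMIs was therefore 200.3-fold higher in the J chain-rich group in the 150 library (95% interval of the ratio 119 to 367, exact conditional binomial) and 56.4-fold higher in the 300 library (49.5 to 64.4). On the log2 scale these are 7.65 and 5.82. The denominators rest on 0.28 and 0.611 J chain UMIs per J chain-poor cell. Human barcodes, described below, held 0.241 and 0.28 each, and the part of background in the ratios was not tested. With the 2 libraries as replicates and the library as a block, edgeR's quasi-likelihood test gave a log2 fold change of 6.11 ± 0.10 (SE), with an adjusted p too small for the software to store (written as 0). This SE is smaller than the distance between the 2 libraries. DESeq2 gave 6.68 ± 0.84 (adjusted p = 1.34e-13), and edgeR without the block gave 6.36 ± 0.44 (adjusted p = 2.29e-07). Of 8918 mouse genes tested in this way, 57.2% passed the threshold of 0.05 and 27.9% did so as higher in the J chain-rich group, so a call by itself was common. The call was lost in 1 setting, k-means on mouse barcodes of at least 500 UMIs, where the log2 fold change was 0.052 (adjusted p = 1.0, edgeR), 296 of the 770 cells changed group and 19 genes passed. By its fitted fold, J chain ranked at position 121 among the 8918 genes, at 65 with DESeq2, at 37 with groups from the first principal component and at 177 with no filter on low counts (14219 genes). These ranks compare folds from unlike groupings. Other genes were tested in clusterings that placed 39 and 41 of 770 cells in the other group, or 79 and 72 with the first principal component. Both libraries come from 1 mixture, and both groups were cut from the same 2 libraries, so the p-values do not cover the spread between cultures. The dispersion behind them was shared across genes. With 2 libraries they therefore do not measure how far J chain itself varied between libraries.

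**Figure D1:**
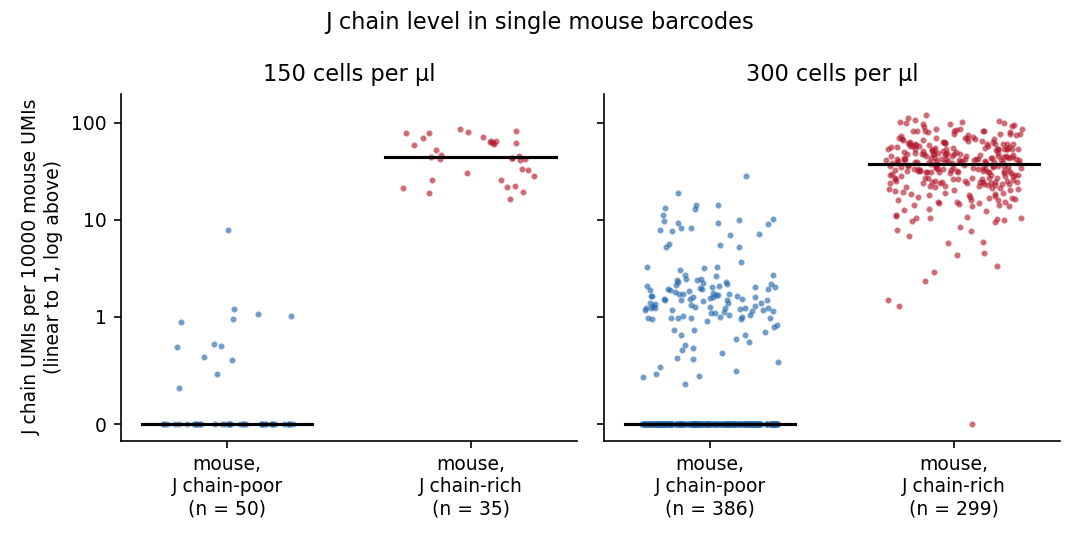
Each point is a mouse cell, and the vertical axis gives J chain UMIs per 10000 mouse UMIs (linear up to 1, logarithmic above) in each library and group, with the median as a black line. The J chain-rich medians lie at 44.0 and 37.6 and the J chain-poor medians at 0. The groups do not overlap in the 150 library, and in the 300 library 96 of 299 J chain-rich cells lie at or under the highest J chain-poor cell, at 27.9. Among cells of at least 2000 UMIs in the 300 library, 33 of 232 lie at or under the highest J chain-poor cell, at 19.0.

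J chain was seen in nearly every cell of the J chain-rich group. In the 150 library, the lowest cell had 3 UMIs, the median cell 56 and the highest 235. The lowest cell of the 300 library had 0, the median 26 and the highest 372. Of these 299 cells, 1 had 0 UMIs, 9 had 1, 16 had 2 and 273 had more than 2. Counts of 1 and 2 also occurred in human barcodes. J chain was seen in 35 of 35 cells in the 150 library (100%, exact binomial interval 90% to 100%) and in 298 of 299 cells in the 300 library (99.7%, 95% exact binomial interval 98.2% to 100%).

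The J chain-poor group was mostly empty of it. In the 150 library, 37 of its 50 cells had 0 UMIs, 12 had 1 and 1 had 2. Among 386 cells in the 300 library, 252 had 0 UMIs, 101 had 1, 23 had 2 and 10 had more than 2, with a highest count of 44. J chain was seen in 26.0% (14.6% to 40.3%) and 34.7% (30.0% to 39.7%) of J chain-poor cells. Human cells, which have no mouse gene to express, showed it in 21.8% (13.7% to 32.0%) and 25.5% (20.8% to 30.6%). Median depths were 10882 and 7608.5 UMIs in the J chain-poor group, and 6383 and 3713.5 UMIs in human cells. In the 150 library the share of J chain-poor cells with a UMI lay inside the interval of this background.

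Deeper cells give more chances of a UMI, so each cell was also thinned to 2000 UMIs. J chain was then expected in 99.7% and 97.3% of J chain-rich cells and in 4.35% and 10.8% of J chain-poor cells in the 150 and 300 libraries. This left out 5 and 67 shallower cells of the J chain-rich group and 7 and 42 of the J chain-poor group.

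Within the J chain-rich group the level per cell varied by several times. Levels of 10 or more per 10000 mouse UMIs were reached by 35 of 35 J chain-rich and 0 of 50 J chain-poor cells in the 150 library, and by 282 of 299 and 8 of 386 cells in the 300 library. With at least 2000 UMIs, these were 220 of 232 and 2 of 344 cells in the 300 library. Per 10000 mouse UMIs, cells in the 150 library ranged from 16.5 to 85.2, with a median of 44.0 (95% interval 33.0 to 61.0) and quartiles of 29.1 and 64.0. Cells in the 300 library ranged from 0 to 120.2, with a median of 37.6 (34.1 to 40.8) and quartiles of 24.2 and 53.9. The 90th percentile was 3.69 times the 10th in the 150 library and 5.25 times in the 300 library. The medians of the libraries were not tested against each other.

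Part of this spread is counting noise. After thinning to 2000 UMIs, the mean was 9.66 and 8.77 J chain UMIs per cell and the variance was 2.47 and 3.31 times the mean, where pure counting would give a ratio of 1. In the same cells, the median ratio over genes with a mean of at least 1 UMI was 1.18 (308 genes) and 1.23 (293 genes). J chain ranked at position 15 of 308 and 9 of 293 by this ratio. For the same relative spread the ratio rises with the mean, and the genes were not matched for mean. The rank therefore does not set the relative spread of J chain apart from that of other genes. The coefficient of variation of thinned J chain counts was 0.506 and 0.615.

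The level followed depth only loosely. In depth classes from 2000, from 5000 and from 10000 total UMIs, J chain-rich cells in the 300 library had 45.9, 48.2 and 38.0 J chain UMIs per 10000 mouse UMIs (55, 90 and 87 cells). Those from 1000 to under 2000 UMIs had 29.5 (25.9 to 33.3, 67 cells), below the interval of each deeper class. In the 150 library the 5 cells of that depth had 41.1 (27.3 to 59.5). The 3 cells from 2000 UMIs had 36.3 (24.1 to 52.5), and the 4 cells from 5000 UMIs had 74.9 (65.3 to 85.4). The 23 cells with 10000 or more UMIs had 45.0 (43.0 to 47.1). Spearman's rho between a cell's level and its mouse UMIs was -0.15 over 35 cells and 0.11 over 299 cells, with numerator and denominator from the same cell.

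**Figure D2:**
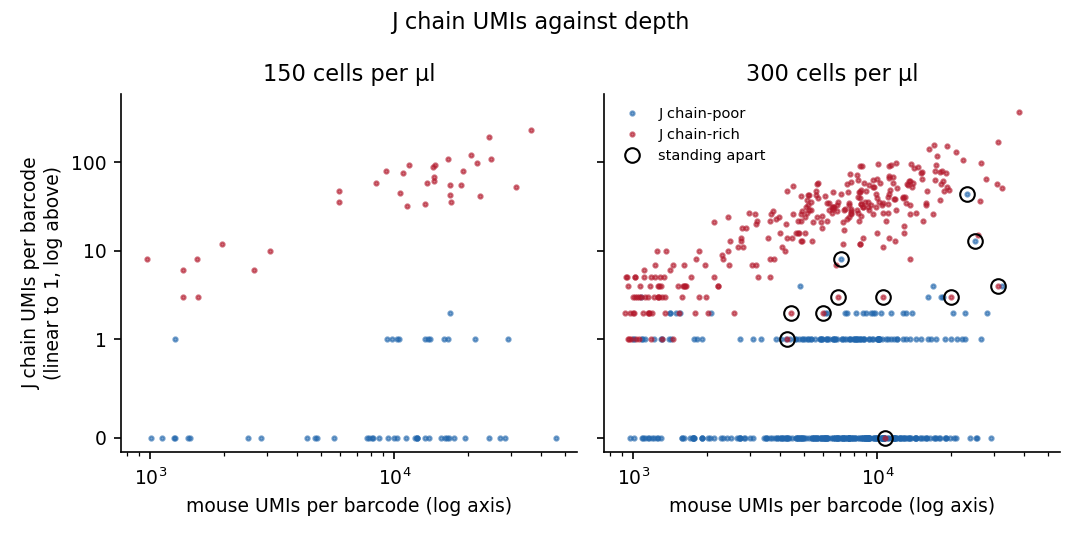
J chain UMIs per barcode (linear up to 1, logarithmic above) are plotted against mouse UMIs per barcode (log axis) for both mouse groups in each library. J chain-rich counts climb with depth while J chain-poor counts stay at 0 to 2 in most cells. Circles mark the 11 cells in the 300 library that stand apart, 8 J chain-rich cells at or under 5 J chain UMIs per 10000 mouse UMIs and 3 J chain-poor cells with 5 or more J chain UMIs.

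Shallow cells in the 300 library were also less cleanly of a single group. A balance was computed per cell from 489 genes that were higher in the J chain-rich group and 479 that were higher in the J chain-poor group, each by at least 3 on the log2 scale, with J chain left out. It is the share of UMIs over both lists that came from the first list. These genes were picked from the same cells, and the balance serves as a description. Its median was 98.0% and 97.0% in the J chain-rich group and 2.20% and 2.70% in the J chain-poor group. In J chain-rich cells of 1000 to under 2000 UMIs in the 300 library it was 85.3%, and in J chain-poor cells of that depth 11.3%. The part of this in the lower J chain level of shallow cells was not tested.

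A few J chain-rich cells had hardly any J chain for their depth. Of the 299 cells in the 300 library, 8 lay at or under 5 J chain UMIs per 10000 mouse UMIs, while 0 of 35 did in the 150 library. These 8 cells had 4289 to 31252 UMIs in all. The deepest had 4 J chain UMIs among 31169 mouse UMIs (1.28 per 10000), the next 3 among 19991 mouse UMIs, and a cell with 10741 mouse UMIs had 0. Their balance was 93.9% to 98.8%, within the 25.5% to 100% of the whole J chain-rich group. They were picked by their J chain level, so this is a description of single cells.

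In the other direction, 3 J chain-poor cells stood out by count, with 5 or more J chain UMIs, all in the 300 library. By level, 8 J chain-poor cells of that library reached 10 or more per 10000 mouse UMIs, the highest at 27.9. Of the 3 picked by count, the highest had 44 J chain UMIs among 23174 mouse UMIs (19.0 per 10000). The next had 13 among 25052 (5.19 per 10000) and the last 8 among 7105 (11.3 per 10000). In the first and second, the balance was 44.8% and 46.4%, between the groups, and 5299 and 5282 mouse genes were seen. The balance of the last was 13.4%. No doublet caller was run, and whether these barcodes held cells of both groups was not tested. Without the barcode of 44 J chain UMIs, 192 remained in the J chain-poor group, or 0.60 per 10000 mouse UMIs (0.518 to 0.691). The ratio between the groups was then 68.8-fold (59.6 to 79.8).

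J chain RNA outside its cells was measured in human barcodes, defined by at least 1000 UMIs and at most 10% mouse UMIs. In the 150 library, 87 human barcodes held 21 J chain UMIs, of which 68 barcodes had 0, 17 had 1 and 2 had 2. The 318 human barcodes of the 300 library held 89 J chain UMIs, of which 237 had 0, 73 had 1 and 8 had 2. The counts were thus small in every human barcode, and none exceeded 2. They made up 0.716% and 0.718% of the J chain UMIs of their libraries.

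Relative to the mouse RNA in those barcodes, J chain was far from rare. It took 19.8 (12.3 to 30.3) and 17.8 (14.3 to 21.9) per 10000 mouse UMIs in human barcodes. All mouse cells together had 20.4 (19.6 to 21.3) and 17.6 (17.2 to 17.9). The ratio of human barcodes to mouse cells was 0.97 (0.599 to 1.49) in the 150 library and 1.01 (0.812 to 1.25) in the 300 library, so no difference from the mixed RNA of both mouse groups was detectable at these counts. Against the J chain-poor group, the share in human barcodes was 84.9-fold (41.2 to 181) and 24.3-fold (18.8 to 31.2) higher. The median barcode held 10842 and 7578 mouse UMIs in the J chain-poor group, and 111 and 136.5 in human barcodes.

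**Figure D3:**
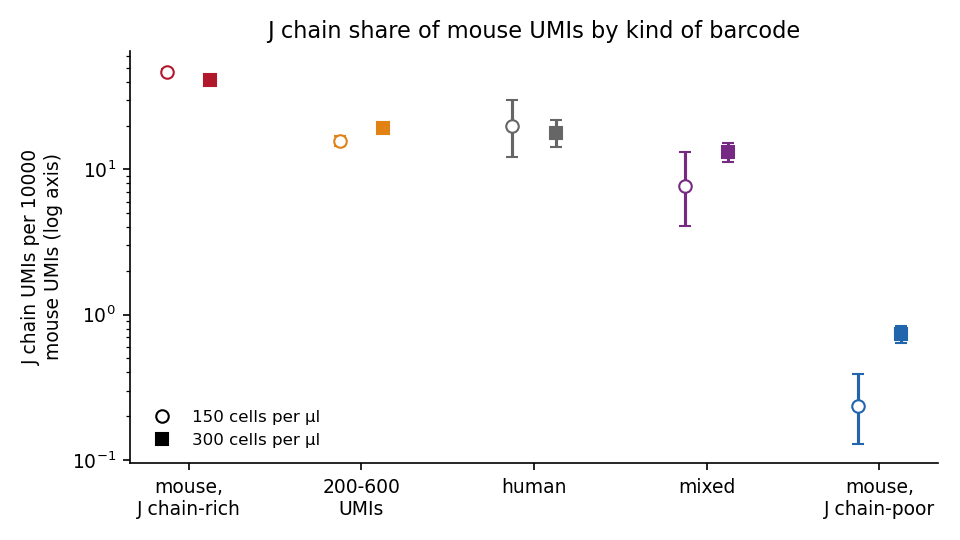
J chain UMIs per 10000 mouse UMIs (log axis) are shown for 5 kinds of barcode in the 150 library (open circles) and the 300 library (filled squares), with 95% Poisson intervals. Human barcodes and barcodes of 200 to 600 UMIs lie between 15.7 and 19.8, below the J chain-rich group at 46.8 and 41.3 and far above the J chain-poor group.

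Counted per barcode, the J chain-poor group resembled human barcodes in the 150 library and lay above them in the 300 library. The means were 0.28 UMIs per J chain-poor cell (0.153 to 0.470) and 0.241 per human barcode (0.149 to 0.369) in the 150 library. In the 300 library they were 0.611 (0.536 to 0.695) and 0.28 (0.225 to 0.344), and 0.499 (0.431 to 0.574) in the J chain-poor group without its highest barcode.

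The mean count per barcode also moved differently with depth. J chain-rich cells in the 300 library had 3.76, 16.3, 35.1 and 59.2 J chain UMIs per cell in the depth classes from 1000, 2000, 5000 and 10000 UMIs. J chain-poor cells had 0.548, 0.288, 0.469 and 1.01 in the same classes, and 44 of the 119 UMIs in the deepest class came from the cell described above. Human barcodes had 0.083, 0.270, 0.356 and 0.538, from 3, 53, 26 and 7 UMIs. The 29 J chain-poor cells with 10000 or more UMIs in the 150 library had 0.379 per cell (0.189 to 0.679), against 81.6 (77.9 to 85.3) in the 23 J chain-rich cells of that depth.

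**Figure D4:**
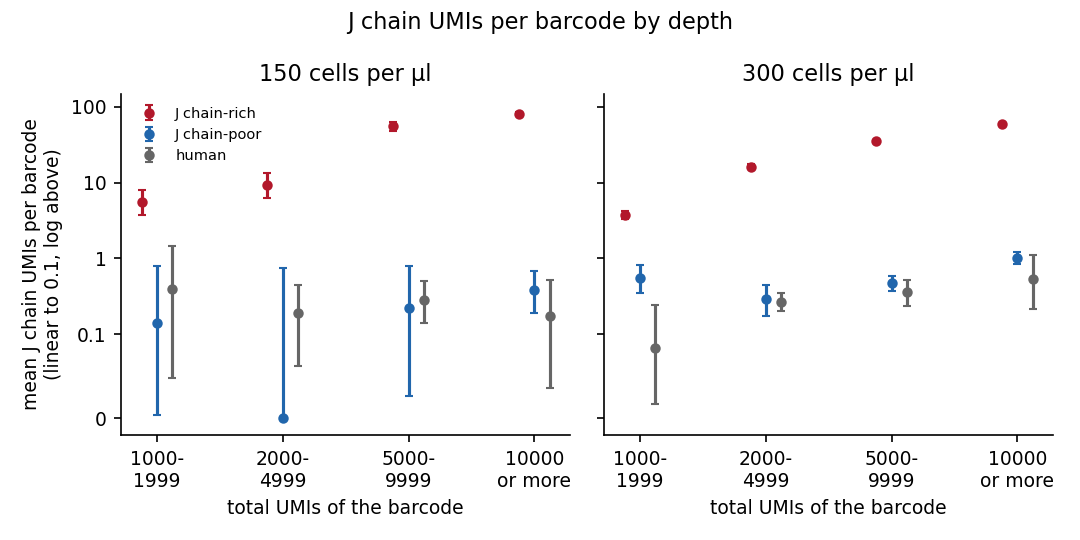
Mean J chain UMIs per barcode (linear up to 0.1, logarithmic above) are plotted by total UMIs of the barcode for both mouse groups and human barcodes, with 95% Poisson intervals. The J chain-rich means reach 81.6 and 59.2 in the deepest class, while the J chain-poor and human means stay at or below 1.01.

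Low-UMI barcodes carried more of the J chain RNA than human barcodes did. The 1672 barcodes of 200 to 600 UMIs in the 150 library held 647 J chain UMIs, and the 2053 in the 300 library held 1536. These were 22.0% and 12.4% of the J chain UMIs of the libraries, beside 26.4% and 11.4% of their mouse UMIs. J chain was seen in 30.7% (28.5% to 33.0%) and 50.1% (47.9% to 52.3%) of these barcodes, at median depths of 326 and 468 UMIs. The highest count was 5 in the 150 library and 6 in the 300 library.

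The level in these barcodes was 15.7 (14.5 to 16.96) and 19.4 (18.4 to 20.4) per 10000 mouse UMIs. Compared with all mouse cells of the same library, it was 0.768 times as high (0.703 to 0.839) in the 150 library and 1.10 times as high (1.04 to 1.16) in the 300 library. The value above 1 depended on the depth chosen: barcodes of 200 to 400 UMIs in the 300 library had 16.3 per 10000 mouse UMIs, below the 17.6 of its mouse cells, and those in the 150 library had 15.8, below 20.4. These ratios leave out the spread between cells, and 35 J chain-rich cells set the mouse value in the 150 library. In both libraries the level in low-UMI barcodes was within counting error of that in human barcodes, with ratios of human to low-UMI barcodes of 1.26 (0.776 to 1.95) and 0.919 (0.734 to 1.14). The J chain-rich group lay 2.98-fold (2.73 to 3.26) and 2.13-fold (2.02 to 2.25) above the low-UMI barcodes. Barcodes of over 600 but under 1000 UMIs held 83 and 910 J chain UMIs, and their level was 13.995 (11.1 to 17.3) per 10000 mouse UMIs in the 150 library and 18.7 (17.5 to 20.0) in the 300 library.

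Genes with a pattern most like J chain were looked for among the cells of the J chain-rich group. Over 1632 genes seen in at least 50% of the 299 cells in the 300 library, Spearman's rho with J chain had a median of 0.07 and reached at most 0.31, for ENSMUSG00000025613. The next was ENSMUSG00000024353 at 0.29. In the 35 cells in the 150 library these genes had values of -0.03 and 0.15, against a median over the genes of 0.02. All values share the depth of the cell, and correlations this weak in sparse counts are given as a description. The files pair no names with these identifiers.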

How the data were processed

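The authors prepared Drop-seq libraries on a Dolomite system, and the deposited tables hold UMI counts per gene and barcode. Per the study's methods, reads were downsampled with seqtk and processed with Drop-seq tools and STAR (2.4.2a, submitters' processing notes) on a joint hg19 (Ensembl 82) and mm10 (Ensembl 84) reference. Whether the deposited tables are the output of that downsampled run is not given in the sources used here. Libraries held 2398956 and 8707135 UMIs.

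Members and lists were chosen with earlier results of these data known. J chain is the 1 member whose counts were used, and the remaining 7 were not analysed here. The rule for named genes took every member and the genes most like it by rank correlation, of which 2 are given. Lists by symbol (other immunoglobulin genes, B cell receptor and secretion genes, T and B lineage markers) were not applied, since the gene table used here (human) named no mouse identifier.

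Mouse cells (at least 1000 UMIs, at least 90% mouse) were scaled to 10000 UMIs, log-transformed and reduced to the 2000 most variable genes and 15 principal components. They were split by k-means with 2 centres (scikit-learn 1.9.0, Python 3.11.15), J chain left out. UMI sums per library and group were tested with edgeR 4.0.16 (R 4.3.3; quasi-likelihood test, TMM, filterByExpr, Benjamini-Hochberg over all genes). Other genes were tested in groups clustered on the other part of a random split of the genes. These clusterings placed 39 and 41 of 770 cells in the other group. DESeq2 1.42.0 was an alternative. On simulated sums for this comparison (8853 genes, 200 changed), edgeR recovered 76% of 2-fold and 98% of 4-fold changes with 9 false calls. The simulation had a fixed dispersion, no library effect beyond depth and no misplaced cells, and changed only well-counted genes. In the data 57.2% of genes passed, so these rates do not carry over to the reported test. SE was taken from the F statistic. Intervals are 95%. Those of levels and means are exact Poisson, and those of ratios are exact conditional binomial. They cover counting error, not the spread between cells or libraries. Intervals of shares of cells (Clopper-Pearson) and of medians (order statistics) take cells as the units sampled. These cover the spread between cells of a library, not between libraries. Expected shares and variances after thinning to 2000 UMIs were computed from the hypergeometric distribution. No doublet caller was run.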

Additional observations from a re-analysis of the deposited data

How the results depend on the processing

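Of 40 recomputed values, 35 counted as kept. A tested J chain fold was kept if it had the same sign and passed the threshold, whatever its size. Where cells were clustered anew, the group with more J chain was again named J chain-rich. The sign there followed from the naming and carries no information. Levels and medians were kept inside the interval of the main value, and counts of genes within a fixed factor of it. A fold with 1 library left out was kept if it lay within the SD of the 2 libraries. The J chain difference between the mouse groups passed the threshold in 11 of 12 retested settings, among them no library block (log2 6.36). The exception was k-means on mouse barcodes of at least 500 UMIs, where log2 was 0.052 (adjusted p = 1.0, edgeR) and 19 genes passed. There 296 of the 770 main cells changed group. Placing the same barcodes by their nearest group profile, an alternative chosen after seeing the data, moved 6 cells and gave log2 5.90. Without the highest J chain-poor barcode, also chosen after seeing the data, log2 was 6.44. With 1 library left out in turn the value ranged from 5.82 to 7.65, with no test. DESeq2 called 2056 genes instead of 5099; for J chain its call was the same. In the 300 library, barcodes of 200 to 400 UMIs had 16.3 J chain UMIs per 10000 mouse UMIs instead of 19.4, and the cause was not tested. Alternatives for isotype and light chain composition were not run, since those genes were not analysed here. Background in human barcodes rests on 21 and 89 J chain UMIs, which limits its precision.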

Other observations

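Mixed barcodes, with at least 1000 UMIs and under 90% of either species, held 13 J chain UMIs over 18 barcodes in the 150 library and 167 over 121 barcodes in the 300 library. Per 10000 mouse UMIs these were 7.70 (4.10 to 13.2) and 13.1 (11.2 to 15.3). Their highest counts were 2 and 16, and the J chain-rich group lay 6.07-fold (3.54 to 11.4) and 3.14-fold (2.70 to 3.69) above them.

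Among barcodes of 200 to 600 UMIs, those in which human UMIs made up at least 50% numbered 43 and 39. They held 7 and 13 J chain UMIs, each in a barcode of its own, or 13.5 (5.43 to 27.8) and 23.7 (12.6 to 40.6) per 10000 mouse UMIs. The other low-UMI barcodes had 15.7 and 19.3, inside those intervals.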
